A study of Mus musculus with 16 samples.

Results

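Enteroids, epithelial cultures grown from intestinal crypts, were compared in 2 of the 4 groups of a mouse jejunal series. MYO5B knockout enteroids treated with Compound-1 were set against control enteroids, to describe which functions stood away from control after treatment. Each group held 4 cultures, so 8 of the 16 samples entered the fit, and the labels alone set the groups. The treated cultures were Vil-CreERT2;Myo5b-flox/flox, in which the villin promoter drives a tamoxifen-dependent Cre recombinase in the intestinal epithelium. They received 1 µM 4-OH-tamoxifen in culture, and after 24 h differentiation medium for 2 days, with Compound-1 at 100 nM. The control cultures carry the genotype Control and the treatment None in the labels, which name 4-OH-tamoxifen for the knockout and mutant enteroids alone. In the study's methods the controls are uninduced enteroids of that same Cre and flox line, and in a legend they are healthy littermates, so their alleles and any vehicle were left as the labels have them. Against these controls, Cre induction, loss of MYO5B and Compound-1 cannot be told apart. The study states that the 4 cultures of a group came from 4 mice. A further 4 knockout cultures of the same genotype had received 4-OH-tamoxifen and then vehicle (PBS) in place of Compound-1, and are called untreated here. Both knockout groups were compared with the same 4 controls, so their values stand side by side and neither comparison is a replicate of the other.

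MYO5B is a motor protein that moves Rab11-marked recycling endosomes to the apical membrane of enterocytes, and its loss in people causes microvillus inclusion disease, a congenital diarrhea. Compound-1 is a synthetic agonist with a preference for LPAR5, one of the G protein-coupled receptors of lysophosphatidic acid (LPA), a lipid that acts on epithelial growth, actin and the coactivator YAP. A jejunal enterocyte carries hydrolases and nutrient transporters on its microvilli, burns fuel in its mitochondria, and is renewed from crypt stem cells that also give rise to goblet, Paneth, tuft and enteroendocrine cells. After injury the epithelium is known to pass through a fetal-like state in which YAP is active and genes such as Clu are expressed.

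The libraries held 31684240 to 36920083 counts in control and 29060547 to 40101729 in treated cultures. At these depths 3 counts, the limit that a count of 0 allows, stood for 0.0737 to 0.111 CPM (counts-per-million units). Levels below are CPM scaled by TMM, a factor that aligns the bulk of the genes between libraries. Control culture 1 stood apart from its group (Pearson's r of log2 CPM 0.965 to 0.970 with the other controls, against 0.992 to 0.995 among those). Among treated cultures r ran from 0.974 (cultures 2 and 3) to 0.989 (cultures 3 and 4). Results that rest on 1 culture are given with and without it. Of markers of cell types outside the epithelium, summed per culture, 16 fibroblast and smooth muscle genes reached 15.8 to 39.6 CPM in control and 9.76 to 44.1 CPM in treated cultures, and Col3a1, Dcn, Lum and Fbn1 were at 0 in all 8. The 16 immune cell genes reached 9.78 to 12.3 CPM in control and 13.7 to 32.8 CPM in treated cultures, with Cd4, Cd8a, Adgre1 and Nkg7 at 0, and the 14 endothelial and neural genes 3.89 to 7.31 and 4.99 to 9.08 CPM, with Cdh5, Kdr and Emcn at 0. The immune sums of the groups did not overlap, and their part in the results was not tested. The immune list holds Lyz2, which is also in the Paneth cell list, so its sum is not of cells outside the epithelium alone. Among 26 pancreatic acinar and gastric genes the sums were 118 to 247 and 93.1 to 217 CPM, and 8 of the 26 were at 0.

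Myo5b itself (ENSMUSG00000025885, GRCm38 chr18:74440936-74771493) was read at 159.8, 229.7, 191 and 176 CPM in control cultures 1 to 4 and at 149, 106, 87.2 and 101 CPM in treated cultures 1 to 4. Every treated culture lay below every control culture, although treated culture 1 came close to control culture 1. Myo5b fell (log2 fold change -0.77, SE 0.19, adjusted p = 0.0146), and the call was lost without treated culture 4. Untreated cultures held 101 to 169.6 CPM. The counts cover the whole gene, so transcripts that lack only the floxed sequence are counted too and the values do not measure how much intact transcript was left.

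Treated and control enteroids differed in 5275 of 17937 genes tested, 29.4% of them, at an adjusted p under 0.05 (edgeR quasi-likelihood test with Benjamini-Hochberg adjustment). Of these, 2820 (15.7%) were higher and 2455 (13.7%) lower in treated enteroids. The total rose to 7459 when control culture 1 was left out, and leaving out control culture 2, 3 or 4 gave 3399, 2957 and 3010 genes. Leaving out treated culture 3 gave 3302 genes and leaving out treated culture 4 gave 3020. The untreated knockout differed from the same controls in 4910 of 17951 genes, 13.5% higher and 13.8% lower. Between treated and untreated knockout edgeR called 0 of 18037 genes at an adjusted p under 0.05, while 1355 had an unadjusted p under 0.05, and DESeq2, added after seeing the data, called 100 (0.566%). Genes named below as different between treated and untreated enteroids are so by DESeq2 alone, and their adjusted p was 0.532 in edgeR.

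Functions were read from lists of named genes, each described by how many tested members were higher or lower and by the median log2 fold change of its tested members, which can be set beside -0.053 over all genes tested. The counts can be set beside the 15.7% of all genes tested that were higher and the 13.7% that were lower. Where leaving out 1 culture moved the number of called members of a list by over 1.5 times, that number is given beside the list with the culture left out. The number called over all genes moved in the same fits, from 5275 to 7459 without control culture 1. It was 3399, 2957 and 3010 without control culture 2, 3 or 4, and 3302 and 3020 without treated culture 3 or 4. A change in the count of a list can be set beside these totals. Extracellular matrix, adhesion, keratin, regeneration and immediate early lists stood above control, and ribosomal, mitochondrial, sugar transport and tuft cell lists stood below it. In most lists the treated and the untreated median lay on the same side of control, and they lay on opposite sides for lists such as antigen presentation, brush border hydrolases and goblet cells. Chemokines did so by a small untreated median (treated 0.65, untreated -0.11). The treated median of mucosal defence was close to control (0.0023, untreated -0.43). The treated cultures were not alike in the lists with opposite sides. In mean log2(CPM + 1) minus the control mean, treated cultures 1 to 4 were at -0.056, -0.20, -0.75 and -0.78 for antigen presentation (control -0.091 to 0.20). For brush border hydrolases they were at 0.37, -0.19, -0.26 and -0.48 (control -0.41 to 0.44). For goblet cells they were at 0.0092, 0.16, 0.94 and 0.62 (control -0.13 to 0.11).

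**Figure D1:**
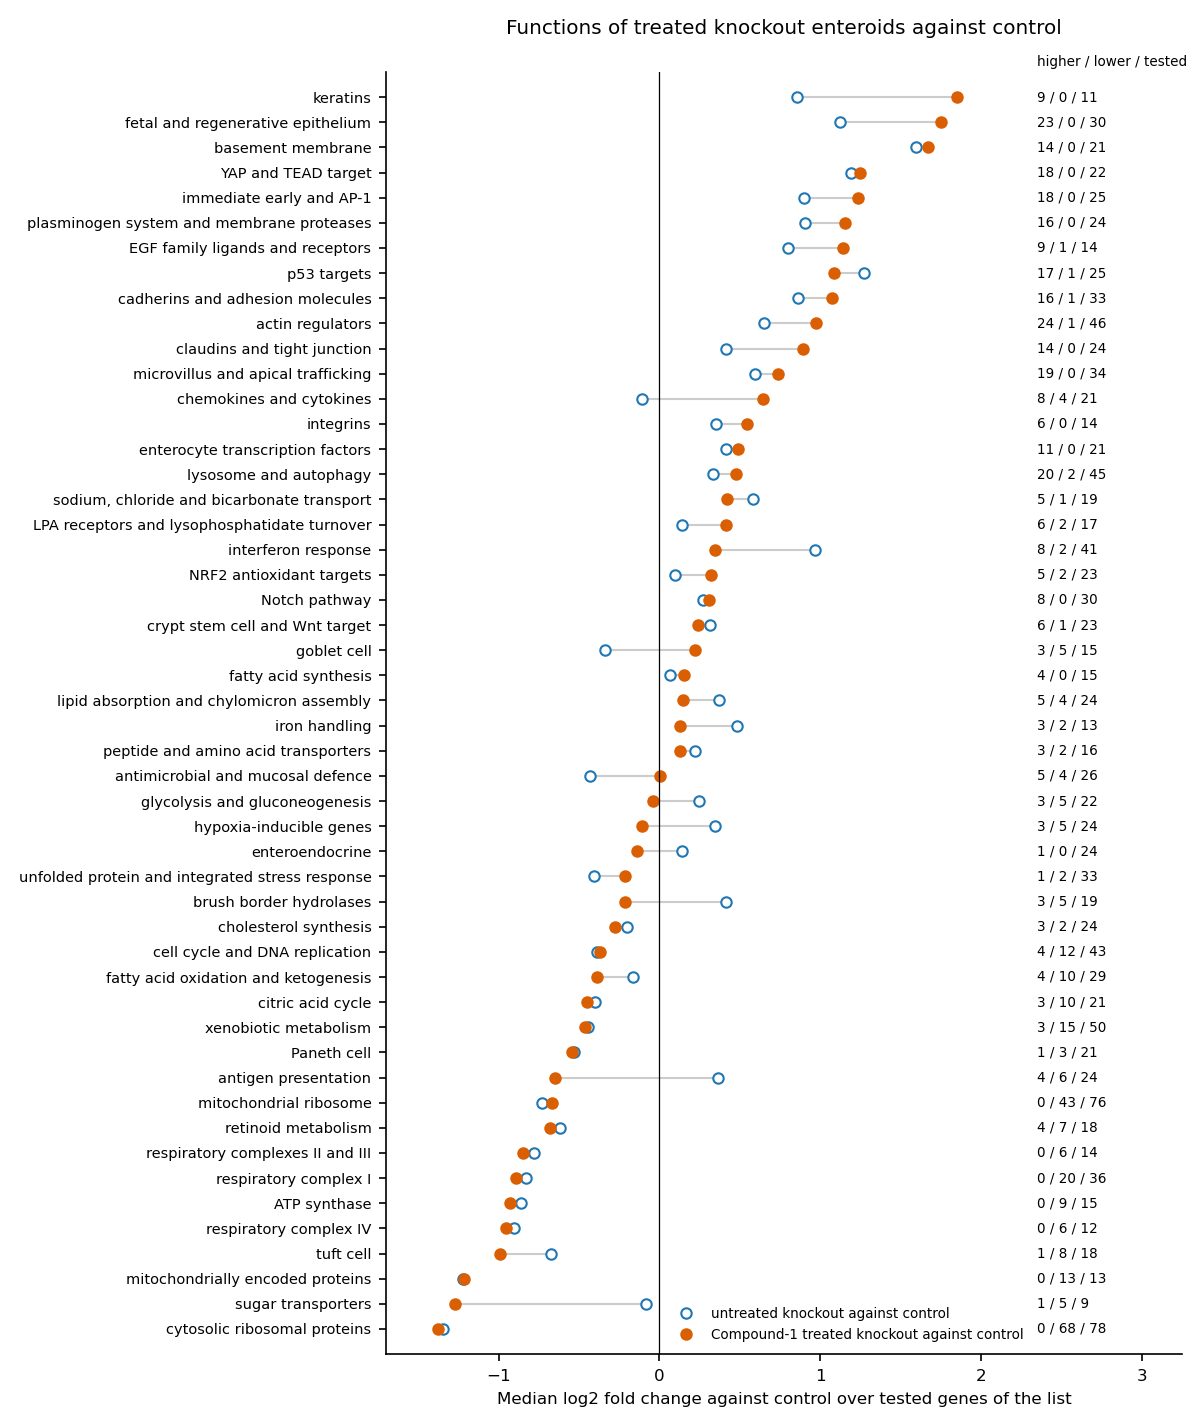
Median log2 fold change against control (x axis) over the tested genes of each list (rows), for Compound-1-treated (filled) and untreated knockout enteroids (open), 4 cultures per group, with the numbers of treated genes higher, lower and tested at the right. Medians of treated enteroids run from -1.38 for cytosolic ribosomal proteins to 1.85 for keratins.

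The largest rises among genes of at least 5 CPM whose groups did not overlap included matrix, adhesion and regeneration genes. For scale, treated cultures lay wholly above control in 14.3% of all genes tested and wholly below in 13.6%. Col4a2 (ENSMUSG00000031503, chr8:11312805-11449287), a chain of basement membrane collagen, stood at 1.41, 3.66, 0.897 and 1.26 CPM in control cultures 1 to 4 and at 34.2, 6.704, 123 and 69.98 CPM in treated cultures 1 to 4. The lowest treated culture, number 2, still held more than the highest control, while treated culture 3 held the most (log2 fold change 5.01, SE 0.82, adjusted p = 0.00434). Col4a1, which lies head to head with Col4a2 on the opposite strand, rose from 1.15–5.69 to 6.61–102 CPM (log2 fold change 4.27, SE 0.79, adjusted p = 0.00572). Their annotated ends overlap by a few bases and the counting is not stated to use strand, so a small part of their reads could be assigned to either. Nid1 (chr13:13437551-13512269), which encodes nidogen, the link between laminin and collagen networks, was at 1.097, 2.66, 0.769 and 0.667 CPM in control and 28.2, 8.24, 34.8 and 32.4 CPM in treated cultures (log2 fold change 4.31, SE 0.56, adjusted p = 0.00398). Treated cultures 1, 3 and 4 were close to each other and culture 2 was the lowest.

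Clu (chr14:65968483-65981547), the secreted chaperone clusterin that marks revival stem cells, was at 13.2, 28.6, 32.3 and 34.5 CPM in control cultures and at 298, 105, 1510.2 and 449 CPM in treated cultures. All 4 treated cultures exceeded the controls, treated culture 3 by the widest margin (log2 fold change 4.44, SE 0.74, adjusted p = 0.00447). The adhesion molecule gene Mcam was at 0.533, 0.964, 2.08 and 1.63 CPM in control and 11.4, 47.4, 33.2 and 13.7 CPM in treated cultures (log2 fold change 4.34, SE 0.56, adjusted p = 0.00398). Untreated cultures held 16.9 to 81.3 CPM. Slc4a11, a membrane transporter gene of the bicarbonate transporter family, stood at 0.513 to 1.44 CPM in control and at 16.9, 17.1, 56.7 and 16.8 CPM in treated cultures (log2 fold change 4.69, SE 0.53, adjusted p = 0.00398), with treated culture 3 far above the other 3.

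Fer1l4, a ferlin family gene, had no count in control culture 1 and at most 1.06 CPM in the other controls, against 5.497, 2.41, 43.5 and 21.7 CPM in treated cultures (log2 fold change 5.22, SE 1.05, adjusted p = 0.00702). Tnni2, a troponin gene of fast skeletal muscle, was at 0.125 to 1.496 CPM in control and 4.98 to 20.9 CPM in treated cultures (log2 fold change 4.31, SE 0.74, adjusted p = 0.00468). DESeq2 also placed treated above untreated cultures (adjusted p = 0.0111). Ces2f, a carboxylesterase gene with close paralogs that may share reads, rose from 0.0941–1.56 to 6.36–27.5 CPM (log2 fold change 4.18, SE 0.77, adjusted p = 0.00566).

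The largest falls included genes of antimicrobial defence, crypt stem cells, gluconeogenesis and lipid uptake. Reg3a (chr6:78380709-78383827), a secreted C-type lectin that acts on bacteria, was at 56.3, 379, 207 and 303 CPM in control cultures and at 54.4, 28.8, 9.89 and 13.8 CPM in treated cultures (log2 fold change -3.15, SE 0.64, adjusted p = 0.00748). Control culture 1 nearly met treated culture 1, and the other 3 controls were several times higher. Olfm4 (chr14:79984081-80023139), a marker of crypt base stem cells, stood at 1570.0, 3749, 3946 and 5712 CPM in control and at 1045, 781, 228 and 639.6 CPM in treated cultures (log2 fold change -2.48, SE 0.48, adjusted p = 0.00632). The untreated cultures held 318 to 1293 CPM. Fbp1, the gluconeogenic enzyme fructose-1,6-bisphosphatase, was at 61.6, 130.2, 118 and 99.5 CPM in control and 30.00, 25.4, 4.15 and 6.02 CPM in treated cultures (log2 fold change -2.65, SE 0.58, adjusted p = 0.00934). G6pc, which encodes the enzyme that frees glucose from glucose 6-phosphate, fell from 14.7–53.8 to 1.94–11.4 CPM (log2 fold change -2.39, SE 0.53, adjusted p = 0.00984).

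Cd36, a fatty acid transporter gene, was at 11.8, 45.4, 29.5 and 29.9 CPM in control and 10.7, 5.98, 3.83 and 3.28 CPM in treated cultures (log2 fold change -2.299, SE 0.45, adjusted p = 0.00664). Treated culture 1 lay just under control culture 1. Ces1d, a carboxylesterase gene of a paralog cluster, fell from 21.6–54.7 to 2.897–11.4 CPM (log2 fold change -2.75, SE 0.42, adjusted p = 0.00398). Prss30, a serine protease gene, fell from 9.09–17.4 to 0.9704–4.09 CPM (log2 fold change -2.41, SE 0.41, adjusted p = 0.00466), with untreated cultures at 3.303 to 12.96 CPM. Sfrp5, a secreted antagonist of Wnt ligands, fell from 4.55–20.9 to 0.737–2.48 CPM (log2 fold change -2.53, SE 0.52, adjusted p = 0.00742). Pbld1, a phenazine biosynthesis-like protein gene, fell from 13.5–19.2 to 1.301–9.25 CPM (log2 fold change -2.03, SE 0.50, adjusted p = 0.0137). Slc7a2, a cationic amino acid transporter gene, fell from 7.85–24.2 to 0.712–6.64 CPM (log2 fold change -2.18, SE 0.63, adjusted p = 0.0265). The Slc7a2 call was lost without treated culture 2, 3 or 4.

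**Figure D2:**
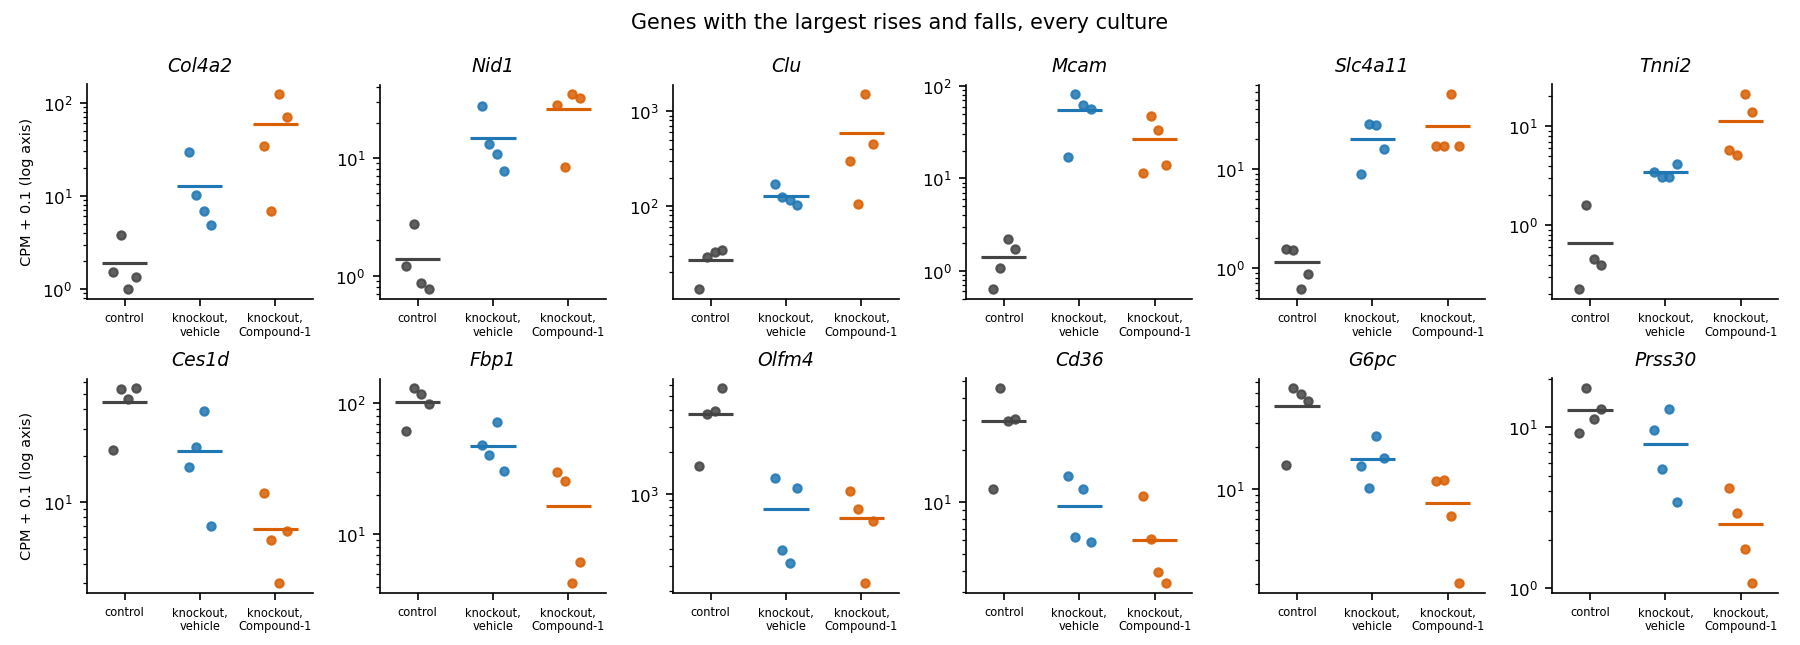
CPM + 0.1 on a log axis of 12 genes with large rises (upper row) and falls (lower row), with 1 point per culture and a bar at the mean of each group of 4, for control, untreated knockout (knockout, vehicle) and treated knockout (knockout, Compound-1). Every treated point lies above every control point in the upper row and below every control point in the lower row, which the choice of these genes required.

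Promoters of these leading genes, from RefSeq on GRCm38.p6, were searched on both strands for an AP-1 motif (TGANTCA), a TEAD motif (GGAATG, the partner of YAP), an HNF4 motif (CAAAGTCCA) and a sterol element (TCACNCCAC), in windows of 250 bases before to 50 after the start. Windows were at hand for 6 of the 10 rises and 8 of the 10 falls, and those that held a match are shown, 5′ to 3′ on the gene's strand and with the match in capitals. Fer1l4 (chr2:156052944-156053243, minus strand) held the AP-1 letters, and Nid1 (chr13:13437352-13437651, plus strand), Ces2f (chr8:104947106-104947405, plus strand) and Pbld1 (chr10:63060463-63060762, plus strand) the TEAD letters, which read CATTCC where they lie on the opposite strand. Pbld1 had a second annotated start whose window held none of the motifs.
Fer1l4: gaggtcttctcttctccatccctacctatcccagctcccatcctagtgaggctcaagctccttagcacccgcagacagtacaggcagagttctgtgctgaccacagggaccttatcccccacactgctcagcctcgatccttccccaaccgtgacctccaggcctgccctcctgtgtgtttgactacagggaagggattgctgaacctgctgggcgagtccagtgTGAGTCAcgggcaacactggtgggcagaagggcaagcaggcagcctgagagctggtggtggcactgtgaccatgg
Nid1: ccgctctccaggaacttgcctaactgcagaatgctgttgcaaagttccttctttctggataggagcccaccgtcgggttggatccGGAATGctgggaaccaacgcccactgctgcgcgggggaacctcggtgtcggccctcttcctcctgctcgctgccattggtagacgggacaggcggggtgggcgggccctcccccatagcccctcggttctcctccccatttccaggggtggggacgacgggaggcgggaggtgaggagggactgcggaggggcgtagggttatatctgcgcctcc
Ces2f: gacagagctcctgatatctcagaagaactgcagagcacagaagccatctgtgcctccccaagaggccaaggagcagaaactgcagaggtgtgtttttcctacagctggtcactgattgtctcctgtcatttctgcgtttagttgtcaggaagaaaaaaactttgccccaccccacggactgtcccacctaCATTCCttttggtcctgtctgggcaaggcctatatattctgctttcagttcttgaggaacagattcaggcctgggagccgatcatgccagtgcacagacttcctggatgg
Pbld1: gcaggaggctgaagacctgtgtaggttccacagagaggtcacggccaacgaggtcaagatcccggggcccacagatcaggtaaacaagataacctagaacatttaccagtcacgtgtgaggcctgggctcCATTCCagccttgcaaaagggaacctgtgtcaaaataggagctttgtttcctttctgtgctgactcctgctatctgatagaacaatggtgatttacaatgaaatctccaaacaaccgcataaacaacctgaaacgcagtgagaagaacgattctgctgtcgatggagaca
Over all 11624 tested genes with a window, 6.86% held the AP-1 and 14.8% the TEAD motif. The AP-1 shares were 8.65% of genes higher and 5.89% of genes lower in treated enteroids, and the TEAD shares 16.2% and 12.7%. For HNF4 the shares were 0.658% and 0.654% beside 0.628% of all, and for the sterol element 1.504% and 1.25% beside 1.48%. A match says that the letters are present, not that the factor binds there.

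Basement membrane genes stood far above control. Of 21 tested members 14 were higher and 0 lower, with a median log2 fold change of 1.67 (untreated 1.59). Agrn, the most abundant member, encodes the proteoglycan agrin and was at 166, 127, 91.2 and 86.1 CPM in control and 369, 275, 699 and 485 CPM in treated cultures (log2 fold change 1.96, SE 0.31, adjusted p = 0.00415). No treated culture came within the control range. Hspg2, which encodes perlecan, was at 35.7 ± 10.5 CPM in treated against 22.3 ± 9.84 CPM in control cultures (SD, n = 4 each) and did not pass the test (log2 fold change 0.68, adjusted p = 0.125), although it did without control culture 1. In untreated cultures Hspg2 was at 76.1 ± 25.7 CPM (log2 fold change 1.78, adjusted p = 0.00343). DESeq2 placed treated below untreated (adjusted p = 0.0243). Among integrins, the receptors for these proteins, 6 of 14 were higher and 0 lower (median 0.55, 0.30 with the trend on gene length removed from each culture). Called members came to 3 without control culture 2 or 4. Itgb4, the hemidesmosome integrin chain, rose from 41.3–69.5 to 203–489 CPM (log2 fold change 2.47, SE 0.29, adjusted p = 0.00398). Itga3 rose from 57.9–79.8 to 155–362 CPM (log2 fold change 1.85, SE 0.26, adjusted p = 0.00398). The most abundant integrin gene, Itgb1, was at 384 ± 17.4 CPM in control and 368 ± 10.8 CPM in treated cultures (log2 fold change -0.062, adjusted p = 0.753). These are bulk RNA values, in which fewer cells of a type and less RNA per cell cannot be told apart.

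Cell-cell junction genes were also higher. The claudin and tight junction list had 14 of 24 members higher and 0 lower, at a median of 0.89 (untreated 0.41). Cldn4, a claudin of wounded and distal epithelium, was at 155, 84.98, 91.9 and 78.6 CPM in control and 378, 358, 964 and 621 CPM in treated cultures (5.66-fold, adjusted p = 0.00398). Cldn23 rose from 8.67–14.8 to 36.9–80.6 CPM (log2 fold change 2.27, SE 0.27, adjusted p = 0.00398). Ildr1, a protein of the contacts where 3 cells meet, rose from 14.2–35.9 to 63.1–124 CPM (log2 fold change 1.97, SE 0.33, adjusted p = 0.004402). For all 3 genes every treated culture lay above every control, and treated culture 3 was the highest. Cadherins and adhesion molecules counted 16 of 33 higher and 1 lower (median 1.07, in limma on log2(FPKM + 1) 0.60). The giant protocadherin gene Fat1 rose from 70.2–208 to 315–768 CPM (log2 fold change 2.14, SE 0.37, adjusted p = 0.00466). Icam1, which binds leukocytes, rose from 0.233–0.704 to 3.11–10.2 CPM (log2 fold change 3.42, SE 0.51, adjusted p = 0.00398).

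Keratins, the intermediate filament proteins of epithelia, had 9 of 11 members higher and 0 lower, with a median of 1.85 against 0.85 in untreated enteroids. That median was 1.22 without treated culture 3 and 1.19 in limma on log2(FPKM + 1), where FPKM are the deposited values per gene length. Krt8, one of the main keratins of simple epithelium, stood at 3013, 2336, 2252 and 2147 CPM in control and at 3939, 5571, 6631 and 4887 CPM in treated cultures (log2 fold change 1.11, SE 0.21, adjusted p = 0.00608). Krt23 was at 49.4, 38.8, 42.9 and 39.5 CPM in control and 84.3, 95.5, 286 and 149.9 CPM in treated cultures (log2 fold change 1.85, SE 0.35, adjusted p = 0.00583). Both genes separated the groups fully. Of actin regulators 24 of 46 were higher and 1 lower (median 0.97). Gsn, which encodes the filament-severing protein gelsolin, rose 6.57-fold, from 29.8 ± 5.17 CPM to 195 ± 97.5 CPM (log2 fold change 2.72, SE 0.32, adjusted p = 0.00398). Capg, a capping protein gene, rose from 20.5 ± 6.92 to 158 ± 92.3 CPM (log2 fold change 2.95, SE 0.42, adjusted p = 0.00398). The formin gene Inf2 rose from 25.2 ± 9.05 to 105 ± 39.4 CPM (log2 fold change 2.05, SE 0.30, adjusted p = 0.00398). Actb, the cytoplasmic actin gene itself, rose from 1323 ± 223 to 2665 ± 96.6 CPM (log2 fold change 1.01, SE 0.18, adjusted p = 0.00481). Myl9, a myosin light chain of contractile cells, was the 1 lower member (2.83 to 7.88 CPM in control, 0 to 2.16 CPM in treated cultures). The Myl9 call was lost without control culture 2, 3 or 4, or treated culture 1 or 4.

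The plasminogen system and membrane proteases, which open the matrix, had 16 of 24 higher and 0 lower (median 1.15). Plaur, the urokinase receptor gene, was at 21.9, 11.9, 12.5 and 9.302 CPM in control and 35.4, 62.9, 129 and 74.9 CPM in treated cultures (log2 fold change 2.44, SE 0.39, adjusted p = 0.00415), with untreated cultures between them at 26.1 to 34.6 CPM. DESeq2 placed treated above untreated for Plaur (adjusted p = 0.0209). Adam8, a membrane metalloprotease gene, rose from 1.74–2.95 to 8.08–46.1 CPM (log2 fold change 3.24, SE 0.50, adjusted p = 0.00407). The inhibitor gene Timp2 rose from 1.03–1.33 to 2.85–21.8 CPM (log2 fold change 3.08, SE 0.57, adjusted p = 0.00579). Spint2, a membrane serine protease inhibitor and the most abundant member, was at 639 ± 134 CPM in control and 1031 ± 213 CPM in treated cultures (adjusted p = 0.0323). The Spint2 call was lost without control culture 2, 3 or 4, or treated culture 3 or 4.

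Fetal and regenerative epithelium genes had 23 of 30 tested members higher and 0 lower, with a median of 1.75 against 1.12 in untreated enteroids. Msln, which encodes mesothelin, was at 31.7, 85.8, 39.4 and 34.9 CPM in control and 353, 173, 945 and 422 CPM in treated cultures (log2 fold change 3.304, SE 0.52, adjusted p = 0.00415). Ctgf, a matrix-associated protein gene and a classical YAP target, was at 2.352, 0.898, 2.08 and 1.59 CPM in control and 13.4, 9.99, 37.5 and 9.79 CPM in treated cultures (log2 fold change 3.35, SE 0.50, adjusted p = 0.00398). Treated culture 3 held the most of both, and the groups did not overlap for either. Sprr2a1, the most abundant member, a small proline-rich protein gene with close paralogs, was at 612 ± 253 CPM in control and 1130.2 ± 471 CPM in treated cultures and did not pass the test (log2 fold change 0.89, adjusted p = 0.0804). Of YAP and TEAD target genes 18 of 22 were higher and 0 lower (median 1.25, untreated 1.19). Called members numbered 10 without control culture 4 and 11 without control culture 2 or 3. Myof, a membrane repair gene, rose from 12.7 ± 1.43 to 117 ± 80.8 CPM (log2 fold change 3.21, SE 0.43, adjusted p = 0.00398). Wwc1, an upstream regulator of the Hippo pathway and itself a target, rose from 101 ± 18.7 to 270.1 ± 60.7 CPM (log2 fold change 1.42, SE 0.20, adjusted p = 0.00398).

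**Figure D3:**
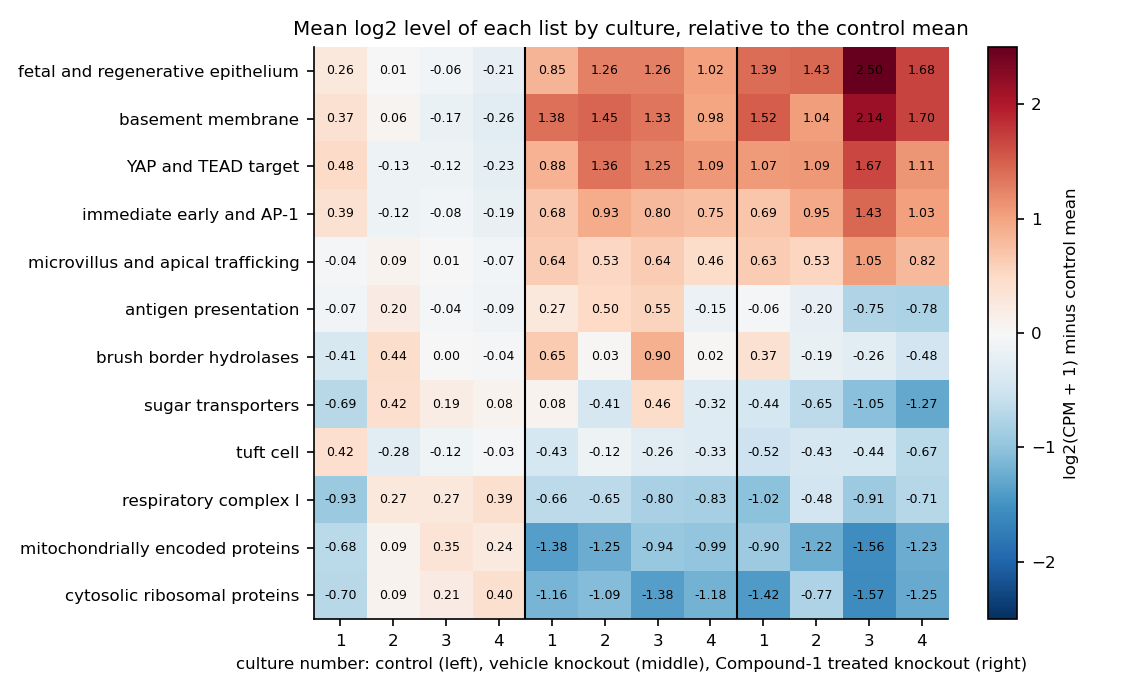
Mean log2(CPM + 1) over the genes of 12 lists (rows) in each culture, minus the mean of the 4 controls, for control (left), untreated (middle) and treated (right) cultures 1 to 4. The fetal list lies between 1.39 and 2.496 in treated cultures against -0.21 to 0.26 in control, and treated culture 3 is highest in the 5 upper rows.

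Immediate early and AP-1 genes, which answer growth factors and stress within minutes, had 18 of 25 members higher and 0 lower (median 1.24, untreated 0.90). Fosl1, an AP-1 subunit of migrating epithelium, was at 1.94, 1.197, 0.897 and 0.889 CPM in control and 4.83, 7.89, 17.01 and 8.13 CPM in treated cultures (log2 fold change 2.94, SE 0.43, adjusted p = 0.00398). Fos stood at 28.8, 10.8, 10.03 and 9.38 CPM in control and at 38.1, 38.2, 79.00 and 59.00 CPM in treated cultures (log2 fold change 1.86, SE 0.39, adjusted p = 0.00842), with control culture 1 above the other controls. Klf6, the most abundant member, rose from 76.1 ± 13.8 to 213 ± 66.1 CPM (log2 fold change 1.49, SE 0.22, adjusted p = 0.00398). Dusp1, a phosphatase that dampens MAP kinases, rose from 3.93–8.53 to 9.12–40.9 CPM (log2 fold change 2.02, SE 0.41, adjusted p = 0.007598). Of EGF family ligands and receptors 9 of 14 were higher and 1 lower (median 1.14). The ligand genes Ereg (epiregulin) and Tgfa were at 9.41 to 35.7 and 12.9 to 29.9 CPM in control and at 57.9 to 100.4 and 35.7 to 75.5 CPM in treated cultures (Ereg log2 fold change 2.02, SE 0.39, adjusted p = 0.00614, and Tgfa log2 fold change 1.46, SE 0.28, adjusted p = 0.00622). Areg, amphiregulin and the most abundant ligand, was at 323, 77.6, 89.2 and 67.7 CPM in control and 303, 348, 589.9 and 423 CPM in treated cultures (adjusted p = 0.0328). The treated range took in control culture 1, and the call was lost without control culture 2, 3 or 4, or treated culture 3 or 4.

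Genes known as p53 targets had 17 of 25 members higher and 1 lower, with a median of 1.09 in treated and 1.27 in untreated enteroids. Zmat3, an RNA-binding protein gene induced by p53, was at 44.4, 26.8, 25.1 and 19.5 CPM in control and 94.7, 129, 173 and 98.9 CPM in treated cultures (log2 fold change 2.099, SE 0.28, adjusted p = 0.00398). Phlda3, a repressor of Akt, was at 9.12 to 13.7 CPM in control and 24.3 to 71.9 CPM in treated cultures (log2 fold change 2.13, SE 0.34, adjusted p = 0.00415). Plk2, a kinase of the stress response, was at 10.9 to 16.8 CPM in control and 34.02 to 112 CPM in treated cultures (log2 fold change 2.28, SE 0.34, adjusted p = 0.00398). In the Notch pathway, which steers cells away from secretory fates, 8 of 30 members were higher and 0 lower (median 0.31), and 16 were called without control culture 1. With the trend on gene length removed, an alternative that called 13.5% of all genes higher and 16.7% lower, 6 were higher and 1 lower, at a median of 0.16. The receptor genes Notch2 and Notch3 rose from 9.67 to 24.6 and 0.815 to 1.496 CPM to 29.98 to 43.3 and 6.51 to 16.3 CPM (Notch2 log2 fold change 1.36, SE 0.28, adjusted p = 0.008003, and Notch3 log2 fold change 3.17, SE 0.38, adjusted p = 0.00398). The ligand gene Jag1 rose from 11.7–24.1 to 36.3–68.7 CPM (log2 fold change 1.51, SE 0.26, adjusted p = 0.00461). The coactivator gene Maml2 rose from 0.296–0.815 to 2.04–10.3 CPM (log2 fold change 3.57, SE 0.54, adjusted p = 0.00398). Notch1 was at 20.6 ± 3.66 CPM in control and 34.03 ± 4.81 CPM in treated cultures (log2 fold change 0.72, SE 0.17, adjusted p = 0.0127). In the same correction its log2 fold change was 0.37 (adjusted p = 0.0573).

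Medians of the mitochondrial lists stood below control, in treated and in untreated enteroids alike in sign and close in value. Counts of the mitochondrial genome made up 3.79 to 6.11% of each treated library and 6.41 to 10.4% of each control library. All 13 protein genes of the mitochondrial genome were lower, at a median log2 fold change of -1.22 (untreated -1.22). mt-Co2, a subunit of complex IV, was at 276, 909.5, 1509 and 642 CPM in control and 248, 208, 120.0 and 256 CPM in treated cultures (log2 fold change -2.002, SE 0.45, adjusted p = 0.00997). mt-Co1, the most abundant, stood at 28224, 42689.8, 51291 and 44352 CPM in control and at 27990.1, 19197, 16084 and 21149 CPM in treated cultures (log2 fold change -0.98, SE 0.25, adjusted p = 0.0173). Its call was lost without control culture 3 or treated culture 3 or 4. Control culture 1 was the lowest control for both. mt-Atp6, of the ATP synthase, fell from 353 ± 145 to 96.3 ± 36.01 CPM (log2 fold change -1.87, SE 0.33, adjusted p = 0.00504). Nuclear copies of mitochondrial sequence may share reads with these genes.

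Among nuclear genes of the respiratory chain, complex I had 20 of 36 subunits and assembly factors lower and 0 higher (median -0.89). The number called was 8 without control culture 4 or treated culture 3 or 4, 9 without control culture 2 or 3, 11 without treated culture 1 and 34 without control culture 1. Ndufb5, an accessory subunit gene, was at 97.7, 202, 218 and 215 CPM in control and 83.8, 94.5, 61.4 and 78.3 CPM in treated cultures (log2 fold change -1.204, SE 0.25, adjusted p = 0.00791). The treated cultures lay near control culture 1 and well below the other 3 controls. Complexes II and III had 6 of 14 lower (3 without control culture 2, 3 or 4, or treated culture 3 or 4 and 11 without control culture 1). Sdhb, the iron-sulfur subunit gene of complex II, fell from 219.6–362 to 128–184 CPM (log2 fold change -0.98, SE 0.20, adjusted p = 0.00723). Complex IV had 6 of 12 lower (3 without control culture 2, 3 or 4, or treated culture 3 or 4 and 12 without control culture 1), with Cox7c at 243 to 506 CPM in control and 191 to 250.3 CPM in treated cultures (log2 fold change -1.01, SE 0.23, adjusted p = 0.0108). Of ATP synthase genes 9 of 15 were lower (4 without control culture 4 and 5 without control culture 2 or 3, or treated culture 3), with Atp5h at 188 to 390.2 CPM in control and 124 to 181 CPM in treated cultures (log2 fold change -1.08, SE 0.23, adjusted p = 0.008299). The catalytic subunit gene Atp5b, the most abundant, was at 2169 ± 125 and 1862 ± 257 CPM and did not pass the test (log2 fold change -0.22, adjusted p = 0.343). In mean log2(CPM + 1) minus the control mean, control culture 1 stood at the treated level in each of these nuclear lists. It was at -0.93 for complex I (treated -1.02 to -0.48, other controls 0.27 to 0.39). For complex IV it was at -1.05 (treated -0.99 to -0.51, other controls 0.26 to 0.42).

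Genes of the mitochondrial ribosome had 43 of 76 members lower and 0 higher (median -0.67, untreated -0.73). Called members came to 22 without control culture 3 or treated culture 4, 23 without control culture 2 or 4, or treated culture 3 and 26 without treated culture 1. Mrpl30 fell from 90.6–181 to 49.2–85.02 CPM (log2 fold change -1.18, SE 0.24, adjusted p = 0.00785). Of cytosolic ribosomal protein genes 68 of 78 were lower and 0 higher, at a median of -1.38 in treated and -1.35 in untreated enteroids. Rplp0, of the ribosomal stalk and the most abundant, was at 3820.0, 4715, 5068 and 5406 CPM in control and 2325, 2899, 1771 and 2150.0 CPM in treated cultures (log2 fold change -1.06, SE 0.20, adjusted p = 0.00635). Rps7 was at 1165, 1723, 1966 and 2110.2 CPM in control and 616, 709.6, 383 and 509.7 CPM in treated cultures (log2 fold change -1.65, SE 0.25, adjusted p = 0.00398). No treated value of either gene reached the lowest control, which was control culture 1.

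These are lists of mostly short genes (median exonic length 1736 bases for cytosolic ribosomal proteins and 1635 for complex I), and the fold change moved with gene length. Over 13745 protein-coding nuclear genes Spearman's rho of log2 fold change and exonic length was 0.237, a description over genes that share the same 8 libraries. In the shortest 10% of genes, of median length 1224 bases, the median log2 fold change was -0.49. In the longest 10%, of median length 12206 bases, it was 0.26. Between treated and untreated enteroids the medians of such bins lay between -0.012 and 0.043. With the trend on length removed from each culture, the median was -1.22 for cytosolic ribosomal proteins with 64 of 78 lower, -0.89 for mitochondrially encoded proteins with 11 of 13 lower, -0.68 for complex I with 19 of 36 lower and -0.57 for the mitochondrial ribosome with 40 of 76 lower. It moved from -0.96 to -0.54 for complex IV, with 6 of 12 lower. For complexes II and III it moved from -0.85 to -0.58 with 4 of 14 lower, and for ATP synthase from -0.93 to -0.86 with 9 of 15 lower. Lists above control moved too, basement membrane from 1.67 to 1.41 with 14 of 21 higher. Cadherins and adhesion molecules moved from 1.07 to 0.76, and EGF family ligands and receptors from 1.14 to 0.92. Microvillus and apical trafficking moved from 0.74 to 0.55, and fetal and regenerative genes from 1.75 to 1.79.

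**Figure D4:**
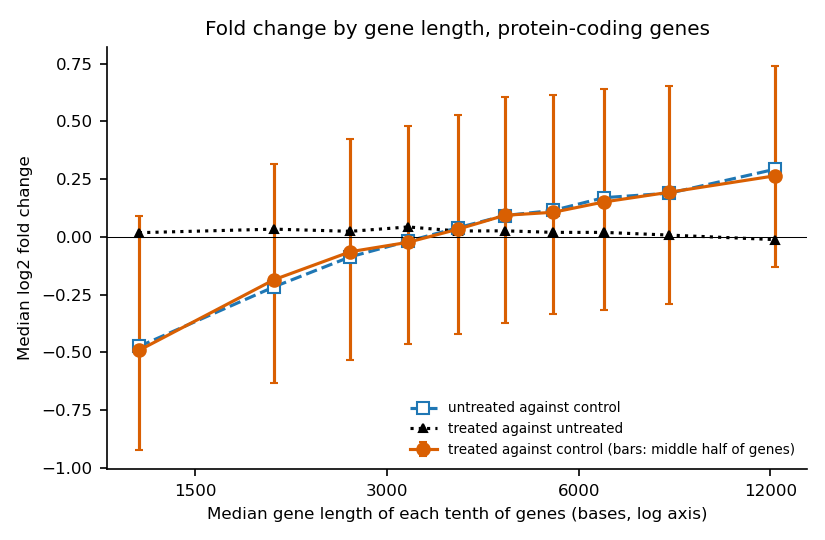
Median log2 fold change (y axis) of protein-coding genes in 10 bins of gene length (x axis, bases, log scale) for treated against control (filled circles, bars spanning the middle 50% of genes), untreated against control (open squares) and treated against untreated enteroids (triangles). Treated against control runs from -0.49 in the shortest to 0.26 in the longest genes, untreated against control runs alongside it, and treated against untreated stays near 0.

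In fuel metabolism, called genes lay on both sides of control. In the citric acid cycle 10 of 21 members were lower and 3 higher (7 without treated culture 4 and 8 without control culture 2, 3 or 4). Fh1, fumarate hydratase, fell from 189–272 to 105–171 CPM (log2 fold change -0.76, SE 0.19, adjusted p = 0.0142). Pcx, the pyruvate carboxylase gene that refills the cycle, rose from 10.97–18.4 to 42.7–109.9 CPM (log2 fold change 2.54, SE 0.30, adjusted p = 0.00398). Ogdh, a subunit of oxoglutarate dehydrogenase, rose from 153–238 to 295–476 CPM (log2 fold change 1.07, SE 0.20, adjusted p = 0.00556). Fatty acid oxidation and ketogenesis had 10 of 29 lower and 4 higher, at a median of -0.39, where the untreated enteroids had 5 lower and 4 higher at -0.17. The count of 14 became 8 without control culture 4 or treated culture 4 and 9 without control culture 2 or 3, or treated culture 3. In mean log2(CPM + 1) minus the control mean, control culture 1 stood below the treated cultures for this list. It was at -0.46 (treated -0.38 to -0.24, other controls 0.14 to 0.18). Hadh, the short-chain 3-hydroxyacyl-CoA dehydrogenase gene and the most abundant member, was at 363, 558, 495 and 542 CPM in control and 304, 251, 163 and 199 CPM in treated cultures (log2 fold change -1.09, SE 0.22, adjusted p = 0.00755). The groups did not overlap. Cpt1a, which admits long-chain fatty acids to mitochondria, was higher, at 61.9 to 69.7 CPM in control and 97.7 to 169 CPM in treated cultures (log2 fold change 1.12, SE 0.18, adjusted p = 0.00434).

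Fatty acid synthesis had 4 of 15 members higher and 0 lower, and 2 were called without control culture 2, 3 or 4, without treated culture 4, or with the length trend removed. In limma on log2(FPKM + 1), which called 18% of all its genes higher and 17.1% lower, 2 were also called. Fasn, fatty acid synthase, was at 225, 275, 235 and 183 CPM in control and 581, 346, 504 and 605 CPM in treated cultures (log2 fold change 1.15, SE 0.21, adjusted p = 0.00541). Srebf1, its transcriptional regulator, rose from 123 ± 10.7 to 213 ± 43.96 CPM (log2 fold change 0.79, SE 0.17, adjusted p = 0.00898). Cholesterol synthesis had 3 of 24 higher and 2 lower (3 without control culture 2, 3 or 4, or treated culture 3 or 4 and 15 without control culture 1). Its counts were near or under the shares of 15.7% and 13.7% over all genes tested. The regulator gene Srebf2 rose from 182–261 to 306–455 CPM (log2 fold change 0.85, SE 0.18, adjusted p = 0.00796). In glycolysis and gluconeogenesis 5 of 22 were lower and 3 higher (4 without treated culture 4 and 5 without control culture 2, 3 or 4), not far from the shares over all genes. Beside Fbp1 and G6pc, Khk, the fructokinase gene, was at 101, 427, 395 and 412 CPM in control and 104, 138, 71.4 and 68.02 CPM in treated cultures (log2 fold change -1.81, SE 0.41, adjusted p = 0.0107). Control culture 1 lay among the treated cultures. Hk1, a hexokinase gene, rose from 21.3–58.3 to 69.3–134 CPM (log2 fold change 1.64, SE 0.32, adjusted p = 0.00628).

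Microvillus and apical trafficking genes had 19 of 34 members higher and 0 lower (median 0.74, untreated 0.59, in limma 0.47). Cdhr5, a protocadherin that links the tips of microvilli, was at 151, 137, 119 and 108 CPM in control and 388, 368, 764 and 555 CPM in treated cultures (log2 fold change 2.01, SE 0.25, adjusted p = 0.00398). Ezr, which encodes ezrin, the tether of apical membrane to actin, was at 410.2, 334, 368 and 305 CPM in control and 703, 837, 1116 and 816 CPM in treated cultures (log2 fold change 1.29, SE 0.19, adjusted p = 0.00398). Neither gene had a treated value in the control range. Among transcription factors of enterocytes 11 of 21 were higher and 0 lower. Called members numbered 4 without control culture 2, 3 or 4, or treated culture 4, 5 without treated culture 3 and 7 without treated culture 1, and 6 with the length trend removed. Klf4, a factor of terminal differentiation, rose from 17.2–29.8 to 43.4–63.3 CPM (log2 fold change 1.27, SE 0.20, adjusted p = 0.00415). Ppard rose from 26.2–50.2 to 77.8–143 CPM (log2 fold change 1.49, SE 0.24, adjusted p = 0.00434). Hnf4a, the most abundant, was at 644 ± 23.8 CPM in control and 914 ± 56.02 CPM in treated cultures (log2 fold change 0.51, adjusted p = 0.0227). The Hnf4a call was lost without control culture 2, 3 or 4, or treated culture 4.

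Brush border hydrolases, which finish digestion on the cell surface, had 5 of 19 members lower and 3 higher in treated enteroids (median -0.21, -0.42 to -0.075 as single cultures were left out), where untreated enteroids had 0 lower and 4 higher (median 0.41). The count of 8 became 5 without treated culture 4. Dpp4, a dipeptidyl peptidase gene, was at 145, 220.2, 193 and 202 CPM in control and 124, 96.5, 40.3 and 61.8 CPM in treated cultures (log2 fold change -1.24, SE 0.31, adjusted p = 0.0143). The groups did not overlap, and untreated cultures held 112 to 228 CPM (log2 fold change -0.35, adjusted p = 0.292). Treated against untreated cultures did not pass the test for Dpp4 in edgeR (log2 fold change -0.92, adjusted p = 0.566) or DESeq2 (adjusted p = 0.215). Sis, sucrase-isomaltase and the most abundant member, stood at 1341, 4964, 3606 and 3590.3 CPM in control and at 1927, 1282, 877 and 738 CPM in treated cultures (log2 fold change -1.48, SE 0.41, adjusted p = 0.0211). Control culture 1 lay within the treated range, and the call was lost without control culture 2, 3 or 4, or treated culture 3 or 4. Alpi, intestinal alkaline phosphatase, rose, from 164, 363, 479.7 and 260.5 CPM in control to 865, 521, 1165 and 1180.2 CPM in treated cultures (log2 fold change 1.56, SE 0.35, adjusted p = 0.0102). The difference between treated and untreated enteroids had a median of -0.58 over these genes, with no member called by edgeR.

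Sugar transporters had 5 of 9 members lower and 1 higher, at a median of -1.27, where untreated enteroids had 1 lower and 1 higher at -0.082. The count of 6 was 2 without control culture 2, 3 or 4, or treated culture 3 or 4. In mean log2(CPM + 1) minus the control mean, control culture 1 was at -0.69 for this list (other controls 0.078 to 0.42). Treated cultures 1 to 4 were at -0.44, -0.65, -1.05 and -1.27. Slc5a4b, a sodium-linked sugar transporter gene with a close paralog in Slc5a4a, was at 15.6, 116, 79.9 and 75.2 CPM in control and 16.9, 13.6, 12.6 and 6.88 CPM in treated cultures (log2 fold change -2.52, SE 0.50, adjusted p = 0.00705). Slc5a1, the main sodium-glucose cotransporter SGLT1, was at 551, 991, 822 and 754 CPM in control and 926, 522, 382 and 369 CPM in treated cultures and did not pass the test (log2 fold change -0.50, adjusted p = 0.238). Treated culture 1 lay inside the control range and the other 3 below it, and without treated culture 1 the gene was called lower. Slc2a5, the fructose transporter GLUT5, was at 36.8 to 130.1 CPM in control and 17.1 to 61.2 CPM in treated cultures (log2 fold change -1.47, adjusted p = 0.0316). The Slc2a5 call was lost without control culture 2, 3 or 4, or treated culture 1, 3 or 4.

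Lipid absorption and chylomicron assembly had 4 of 24 lower and 5 higher (2 without treated culture 3 and 3 without control culture 3 or 4, or treated culture 4), not far from the shares over all genes tested. The fatty acid binding protein genes Fabp1 and Fabp2 were at 245, 4449, 3677 and 3972 and at 119, 1315, 982 and 923 CPM in control cultures 1 to 4. In treated cultures 1 to 4 they were at 467, 841, 417 and 645 and at 218, 208, 166 and 182 CPM. For both genes the value of control culture 1 was under or among the treated ones, far below the other controls. The Fabp1 call (log2 fold change -2.38, adjusted p = 0.0225) was lost without control culture 2, 3 or 4, or treated culture 1, 3 or 4, and the Fabp2 call (log2 fold change -2.11, adjusted p = 0.0159) without treated culture 3. Sodium, chloride and bicarbonate transport had 5 of 19 higher and 1 lower, and 10 were called without control culture 1. Slc9a2 and Slc9a3r1, a sodium-proton exchanger gene and a scaffold gene of the apical exchangers, rose from 30.8 to 62.2 and 154 to 239 CPM to 76.7 to 158 and 355 to 587 CPM (Slc9a2 log2 fold change 1.63, SE 0.28, adjusted p = 0.00474, and Slc9a3r1 log2 fold change 1.14, SE 0.20, adjusted p = 0.00497).

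Peptide and amino acid transporters had 3 of 16 higher and 2 lower, near the shares over all genes tested. The number called was 2 without control culture 3 and 3 without control culture 4 or treated culture 3. The taurine transporter gene Slc6a6 rose from 124–144 to 197–377 CPM (log2 fold change 1.19, SE 0.20, adjusted p = 0.00458). Xenobiotic metabolism had 15 of 50 lower and 3 higher (median -0.46). Called members came to 11 without control culture 3 and 35 without control culture 1. In mean log2(CPM + 1) minus the control mean, control culture 1 was at -0.79 for this list (treated -0.56 to -0.36, other controls 0.18 to 0.41). Cyp3a25, a cytochrome P450 gene, was at 107, 291, 217 and 214 CPM in control and 84.5, 64.7, 57.7 and 54.4 CPM in treated cultures (log2 fold change -1.66, SE 0.28, adjusted p = 0.00447). Mgst1, a microsomal glutathione transferase gene, fell from 378 ± 168 to 111 ± 25.4 CPM (log2 fold change -1.77, SE 0.37, adjusted p = 0.00788). Control culture 1 held 127 CPM. Retinoid metabolism had 7 of 18 lower and 4 higher (6 without control culture 3 or treated culture 4 and 7 without control culture 2 or treated culture 3), and 5 lower and 2 higher in limma. Aldh1a1, which makes retinoic acid, was at 174, 836, 634 and 594 CPM in control and 154, 142, 171 and 146 CPM in treated cultures (log2 fold change -1.87, SE 0.38, adjusted p = 0.00722). Aldh1a3, which catalyses the same step, was at 0.753, 0.964, 0.288 and 0.371 CPM in control and 3.251, 1.32, 20.1 and 6.85 CPM in treated cultures (log2 fold change 3.72, SE 0.79, adjusted p = 0.00842). Lrat, which stores retinol as esters, fell from 3.86–10.4 to 0.516–2.08 CPM (log2 fold change -2.48, SE 0.43, adjusted p = 0.00493). The 3 genes separated the groups, Aldh1a3 upward and the other 2 downward. The mean level of the retinoid list did not, with control culture 1 at -0.76 (treated -0.52 to -0.26, other controls 0.18 to 0.36).

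**Figure D5:**
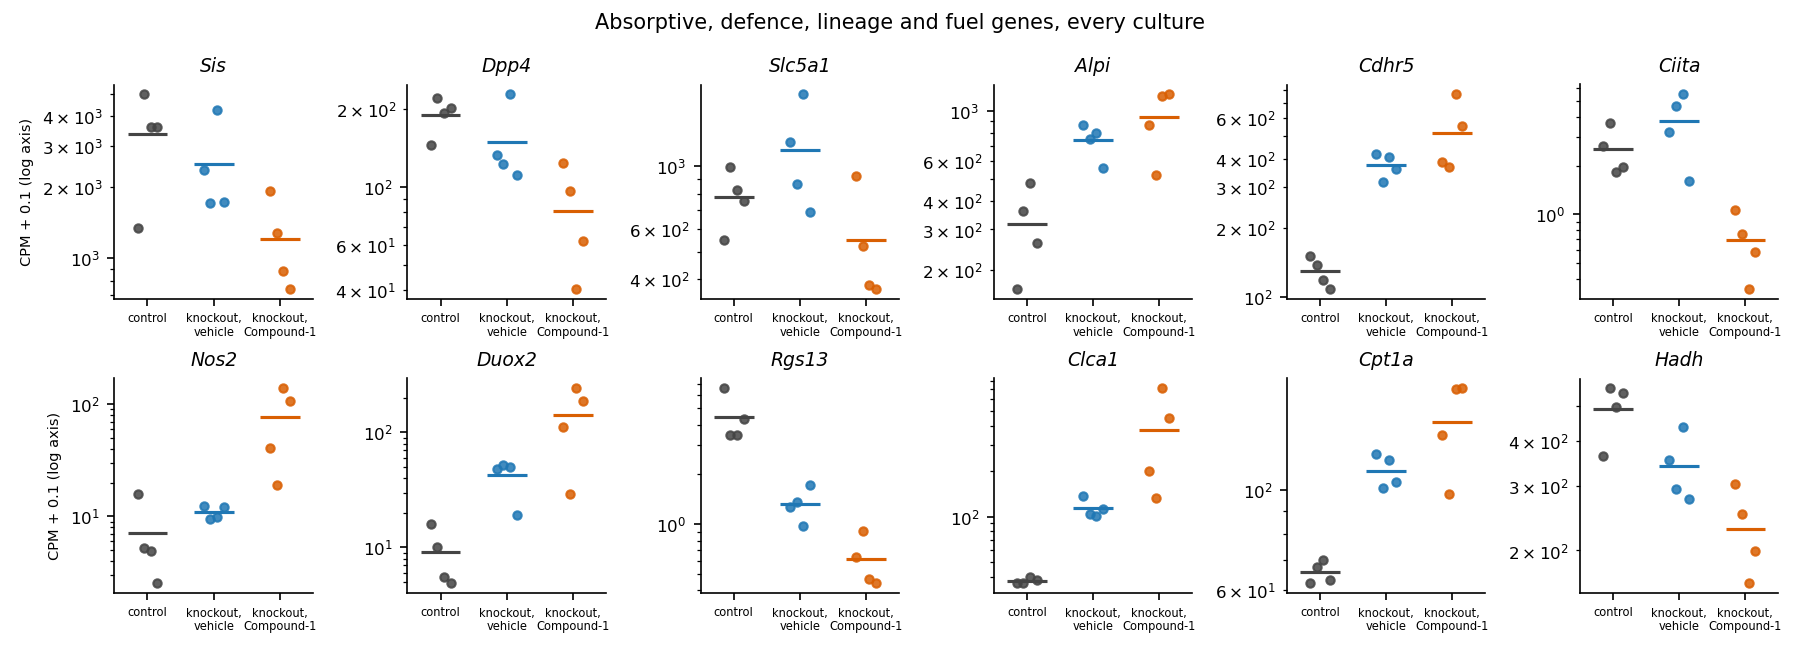
CPM + 0.1 on a log axis of 12 genes of absorption, defence, cell lineage and fuel use, with 1 point per culture and a bar at the mean of each group of 4, for control, untreated knockout and treated knockout. Ciita and Dpp4 lie below control in treated but not in untreated cultures, where they overlap control, and Nos2, Duox2 and Clca1 lie highest in treated cultures 3 and 4.

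Among the cell lineages, tuft cell genes had 8 of 18 members lower and 1 higher (median -0.99, untreated -0.68). Called members numbered 4 without treated culture 4 and 5 without control culture 4. In limma on log2(FPKM + 1), which leaves out genes of low FPKM and shrinks fold changes of others at low FPKM, 4 members were lower and 1 higher, at a median of -0.44. Pou2f3, the transcription factor that tuft cells need, was at 5.299, 3.76, 4.36 and 5.67 CPM in control and 2.346, 2.26, 1.18 and 1.06 CPM in treated cultures (log2 fold change -1.48, SE 0.33, adjusted p = 0.00945). Rgs13, a regulator of G protein signaling, was at 6.52, 3.36, 3.37 and 4.22 CPM in control and 0.536, 0.815, 0.368 and 0.343 CPM in treated cultures (log2 fold change -3.08, SE 0.38, adjusted p = 0.00398). Both were below control in every treated culture. Dclk1 was at 13.6, 3.69, 4.78 and 7.15 CPM in control and 3.75, 4.04, 1.99 and 1.86 CPM in treated cultures (log2 fold change -1.33, adjusted p = 0.0416). The Dclk1 call was lost without control culture 1, 3 or 4, or treated culture 1, 3 or 4. Plcg2, a phospholipase that other cells also express, was the higher member (18.6 to 21.9 CPM in control, 27.6 to 50.5 CPM in treated cultures).

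Goblet cell genes went both ways, with 5 of 15 lower and 3 higher, and 5 called in all without control culture 4 or treated culture 4. Clca1, a secreted mucus protein gene, was at 36.03, 36.3, 39.7 and 37.6 CPM in control and 201, 133, 712 and 455 CPM in treated cultures (log2 fold change 3.33, SE 0.46, adjusted p = 0.00398). Fcgbp, another mucus component, was at 889, 341, 339 and 277 CPM in control and 1384, 917, 3593 and 2598 CPM in treated cultures (log2 fold change 2.202, SE 0.49, adjusted p = 0.00967). Klk1, a kallikrein gene, fell from 21.9–56.2 to 11.8–14.1 CPM (log2 fold change -1.597, SE 0.25, adjusted p = 0.00414). DESeq2 placed Clca1 higher in treated than in untreated cultures (adjusted p = 0.0111), which held 101 to 138 CPM. Paneth cell genes had 3 of 21 lower and 1 higher (2 without control culture 2 or 3, or treated culture 1 or 4 and 11 without control culture 1). Mptx2, a pentraxin gene of Paneth cells, fell from 18.9–28.5 to 4.48–8.396 CPM (log2 fold change -1.98, SE 0.26, adjusted p = 0.00398). Lyz1, the lysozyme gene and the most abundant, was at 2282 ± 645 CPM in control and 1479 ± 223 CPM in treated cultures (log2 fold change -0.63, adjusted p = 0.0638), passing it without control culture 1. Of enteroendocrine genes 1 of 24 was higher, Chga at 31.5 to 74.97 CPM in control and 44.3 to 180.1 CPM in treated cultures (log2 fold change 1.32, adjusted p = 0.0385). The enteroendocrine count was 0 without control culture 3 or 4, or treated culture 3 or 4, 2 without treated culture 1 and 7 without treated culture 2, the 7 being lower.

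Crypt stem cell and Wnt target genes had 6 of 23 higher and 1 lower (median 0.24), the lower one being Olfm4, and 12 were called without control culture 1. With the length trend removed 6 were higher and 3 lower, at a median of 0.026. Cd44 and Ephb3, both targets of Wnt signaling, rose from 82.3 to 109.6 and 24.7 to 35.6 CPM to 145 to 263 and 43.98 to 88.9 CPM (Cd44 log2 fold change 1.02, SE 0.19, adjusted p = 0.006002, and Ephb3 log2 fold change 1.098, SE 0.22, adjusted p = 0.00715). Cell cycle and DNA replication genes had 12 of 43 lower and 4 higher (median -0.37, untreated -0.39). The number called was 6 without control culture 2, 3 or 4, or treated culture 4 and 10 without treated culture 3. Pcna, the sliding clamp of replication, was at 305, 494, 545 and 507 CPM in control and 258, 266, 168 and 236 CPM in treated cultures (log2 fold change -0.998, SE 0.22, adjusted p = 0.00943). Cdk1, the mitotic kinase gene, fell from 109–171 to 49.6–98.5 CPM (log2 fold change -0.97, SE 0.23, adjusted p = 0.0127). Ccne2, a cyclin of S-phase entry, fell from 25.5–28.01 to 7.64–14.9 CPM (log2 fold change -1.19, SE 0.20, adjusted p = 0.00459). Treated cultures were wholly below control for these 3 genes.

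Antimicrobial and mucosal defence genes had 5 of 26 members higher and 4 lower (median 0.0023), near the shares of 15.7% and 13.7% over all genes tested. Single genes went both ways, Nos2 and Duox2 above control and the lectin gene Reg3a, described above, below it. Nos2, inducible nitric oxide synthase, was at 15.7, 5.09, 4.78 and 2.45 CPM in control and 40.5, 18.9, 138 and 107 CPM in treated cultures (log2 fold change 3.44, SE 0.70, adjusted p = 0.00744). Untreated cultures held 12.4, 9.41, 9.88 and 11.95 CPM (log2 fold change 0.65, adjusted p = 0.3198 against control). DESeq2 placed treated above untreated (adjusted p = 0.00685). Duox2, a hydrogen peroxide-producing oxidase gene, was at 15.9, 9.94, 5.42 and 4.78 CPM in control and 111, 29.1, 242 and 188 CPM in treated cultures (log2 fold change 3.98, SE 0.63, adjusted p = 0.00414). Its maturation factor gene Duoxa2 rose from 1.52–4.39 to 9.71–39.3 CPM (log2 fold change 3.01, SE 0.44, adjusted p = 0.00398). In all 3 genes treated culture 2 was the lowest treated culture and still above the highest control. Chemokines and cytokines had 8 of 21 higher and 4 lower. Cxcl16 rose from 14.5–24.3 to 59.4–151 CPM (log2 fold change 2.22, SE 0.31, adjusted p = 0.00398). Csf1, a macrophage growth factor gene, rose from 0.233–1.19 to 2.01–15.5 CPM (log2 fold change 3.26, SE 0.68, adjusted p = 0.00791). Ccl25, which attracts lymphocytes to the small intestine, was at 189, 527, 487 and 453 CPM in control and 154, 179, 124 and 158 CPM in treated cultures (log2 fold change -1.43, SE 0.29, adjusted p = 0.00711). Ccl9 was at 13.9, 68.02, 81.8 and 114 CPM in control and 14.8, 13.3, 15.1 and 12.6 CPM in treated cultures (log2 fold change -2.31, SE 0.48, adjusted p = 0.00783), with control culture 1 inside the treated range for Ccl9.

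Antigen presentation genes had 6 of 24 lower and 4 higher in treated enteroids (median -0.65, in limma -0.40), beside 1 lower and 5 higher in untreated ones (median 0.37), and the count of 10 was 6 without treated culture 4. Ciita, the master regulator of MHC class II, was at 2.54, 3.56, 1.73 and 1.85 CPM in control and 0.972, 0.658, 0.246 and 0.485 CPM in treated cultures (log2 fold change -2.04, SE 0.44, adjusted p = 0.00892). Untreated cultures held 3.12, 4.56, 5.42 and 1.502 CPM (log2 fold change 0.60, adjusted p = 0.2899 against control). DESeq2 placed treated below untreated (adjusted p = 6.46e-05). H2-T3, a nonclassical class I gene with near paralogs, fell from 20.3–35.1 to 7.73–17.5 CPM (log2 fold change -1.25, SE 0.27, adjusted p = 0.00874). Psmb8, an immunoproteasome subunit gene, fell from 6.68–12.7 to 3.32–6.42 CPM (log2 fold change -1.101, SE 0.27, adjusted p = 0.0143). Tapbp, which loads peptides on class I, rose from 31.8–40.6 to 56.4–131 CPM (log2 fold change 1.27, SE 0.24, adjusted p = 0.00609). H2-K1, the most abundant member, was at 619 ± 59.6 CPM in control and 738 ± 61.2 CPM in treated cultures (log2 fold change 0.25, adjusted p = 0.231). The median difference between treated and untreated enteroids over these genes was -0.71.

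Interferon response genes had 8 of 41 higher and 2 lower in treated enteroids (median 0.35, in limma 0.23), beside 17 higher and 0 lower in untreated ones (median 0.97). The treated count of 10 was 5 without control culture 3 or 4, or treated culture 3 and 17 without control culture 1, and the lists of the 2 groups were not tested against each other. Oasl1, a sensor-like protein gene and the most abundant, was at 44.7, 36.6, 32.3 and 19.05 CPM in control and 184, 99.8, 184 and 186 CPM in treated cultures (log2 fold change 2.301, SE 0.28, adjusted p = 0.00398), with 71.4 to 191 CPM in untreated cultures.

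Among LPA receptors and enzymes of lysophosphatidate turnover 6 of 17 were higher and 2 lower. Called members came to 3 without control culture 2 or 3, or treated culture 3 or 4 and 4 without control culture 4. Lpar5, the receptor that Compound-1 prefers, was at 21.9, 12.6, 13.97 and 10.6 CPM in control and 30.2, 20.2, 29.95 and 28.5 CPM in treated cultures (log2 fold change 0.88, SE 0.24, adjusted p = 0.0203). Untreated cultures held 20.1 to 30.98 CPM. Treated culture 2 lay below control culture 1, and the call was lost without control culture 2, 3 or 4, or treated culture 3 or 4. Lpar2 was at 10.7, 9.38, 10.03 and 10.8 CPM in control and 16.5, 11.8, 24.9 and 18.3 CPM in treated cultures (log2 fold change 0.80, SE 0.22, adjusted p = 0.0223), a call lost without the same 5 cultures. Lpar6 was at 21.4, 23.1, 26.1 and 27.4 CPM in control and 14.9, 12.4, 11.9 and 12.8 CPM in treated cultures (log2 fold change -0.92, SE 0.15, adjusted p = 0.00458), every treated culture being lower. Lpar1 was at 25.6 ± 1.44 CPM in control and 24.8 ± 2.38 CPM in treated cultures (log2 fold change -0.048, adjusted p = 0.818). Agpat4, which acylates lysophosphatidic acid, rose from 4.45–8.08 to 14.3–15.9 CPM (log2 fold change 1.17, SE 0.21, adjusted p = 0.00521).

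Genes that the study names in its enteroid text were chosen on these same cultures, so their direction is no independent evidence. Of the 28 tested, 18 were higher and 6 lower in treated enteroids, and 22 higher and 4 lower in untreated ones. Nox1, a superoxide-producing oxidase gene, was at 0.4703, 5.02, 6.89 and 9.04 CPM in control, 1.77, 0.5096, 0.708 and 1.92 CPM in untreated and 5.598, 6.42, 13.8 and 20.5 CPM in treated cultures. The treated cultures did not differ from control in the test (log2 fold change 1.12, adjusted p = 0.238), with control culture 1 near the untreated level. Untreated against control gave a log2 fold change -2.11, adjusted p = 0.0483 for Nox1, and DESeq2 placed treated above untreated (adjusted p = 2.30e-08). Nox1 and Hspg2 were thus called away from control in untreated enteroids and not in treated ones, while Ciita and Nos2 were called away from control in treated enteroids and not in untreated ones. For these 4 genes DESeq2 called the difference between treated and untreated cultures and edgeR did not.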

How the data were processed

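RNA of 16 enteroid cultures was sequenced, and the deposited gene counts were made by the authors with STAR (version 2.5) on GRCm38 and HTSeq (version 0.6.1), with no strand setting stated. The submitters' processing notes also list TopHat and DESeq2, whose role in the deposited values is not given in the sources used here. The deposited FPKM values, which the authors scaled by gene length and library size, served an alternative only. Cultures were grouped by their labels. The 4 treated and 4 control cultures were fitted alone in edgeR 4.0.16 (R 4.3.3) with TMM scaling and the quasi-likelihood test on genes that reached 10 counts in 2 or more libraries, p-values were adjusted by the Benjamini-Hochberg method over all genes tested, and a gene was called at an adjusted p under 0.05. Each untreated comparison was a separate fit of its 2 groups. Floors of 3 counts cover counting error only.

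The members and gene lists were chosen with earlier results of these data known. The named genes were the 10 largest rises and the 10 largest falls among called genes of at least 5 CPM whose groups did not overlap, up to 4 called members of largest change and the most abundant member of each list, genes the study names, Myo5b, Nox1 and the LPA receptors. A further rule, for genes that differed between treated and untreated cultures in edgeR, selected 0 genes. Predicted genes, pseudogenes, Xist and Y-linked genes were left out, and not all genes under the rule are printed.

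Alternatives were DESeq2 1.42.0, its size factors in edgeR, library sizes without mitochondrially encoded genes, filterByExpr, no filter, all 4 groups in 1 fit, a replicate block, donor sex of the culture as a covariate, robust empirical Bayes, limma 3.58.1 on log2(FPKM + 1) for genes with mean FPKM over 0.5, a loess trend on gene length (span 0.3) removed from each culture, and each culture left out in turn. DESeq2 between treated and untreated cultures, and control culture 1 and treated culture 3 left out together, were added after seeing the data. Donor sex is not in the labels and was read from Xist against Y-linked genes in these same counts. By this, control held 2 female and 2 male cultures, and the treated group 1 female and 3 male. The edgeR script was tested on simulated data.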

Additional observations from a re-analysis of the deposited data

Results flagged for a closer look

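For 24 of 282 groups of 4 cultures, over the genes named here, 1 culture lay far from the other 3 of its group, its gap to the nearest being above Dixon's 95% critical value. Chance alone gives about 1 in 20 such groups. Below the other 3 lay control culture 1 for Cdk1 (109 CPM), Cox7c (243 CPM), H2-K1 (529 CPM), Khk (101 CPM), Mgst1 (127 CPM), Mrpl30 (90.6 CPM), Ndufb5 (97.7 CPM), Sdhb (219.6 CPM) and Slc2a5 (36.8 CPM). Above the other 3 lay control culture 1 for Areg (323 CPM), Fcgbp (889 CPM), Fos (28.8 CPM), Ildr1 (35.9 CPM) and Slc7a2 (24.2 CPM). Above the other 3 lay treated culture 3 for Agpat4 (15.9 CPM), Ces2f (27.5 CPM), Ctgf (37.5 CPM), Notch3 (16.3 CPM) and Slc4a11 (56.7 CPM). Below the other 3 lay treated culture 2 for Lpar5 (20.2 CPM) and Oasl1 (99.8 CPM). Above the other 3 lay control culture 2 for Msln (85.8 CPM) and Tnni2 (1.496 CPM). Above the other 3 lay treated culture 4 for Hnf4a (998 CPM). No explanation of these values was tested.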

How the results depend on the processing

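The number of genes that differed between treated and control enteroids was 5275, and it lay between 4401 (replicate block) and 6855 (all 4 groups in 1 fit) under the other models and filters. Leaving out 1 culture gave 2957 to 7459 genes, 1710 to 4056 of them higher and 1206 to 3403 lower, with fewer samples in each fit. The members called numbered 10 to 13 for mitochondrially encoded proteins (13 with all cultures), 13 to 15 for basement membrane (14), 8 to 18 for fatty acid oxidation and ketogenesis (14), 3 to 15 for cholesterol synthesis (5), 5 to 9 for brush border hydrolases (8) and 6 to 16 for the Notch pathway (8). Cholesterol synthesis had 10 members called with all 4 groups in 1 fit and 3 with the replicate block, and 12 without both control culture 1 and treated culture 3, where the Notch pathway had 15. The cause was not tested. Treated against untreated enteroids gave 0 genes in edgeR and 100 in DESeq2.

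Of 131 called genes named here, the block kept 122, DESeq2 130, limma on FPKM 123 of 128 and the length correction 127, and leaving out 1 culture kept 117 to 130. No called gene turned its direction under these alternatives. Lpar1, not called, had log2 fold changes of -0.094 to 0.013 as single cultures were left out. The median log2 fold change over all genes tested ran from -0.088 to -0.0062. Cultures of the 2 groups share replicate numbers, and whether they share donors is not stated in the sources used here. The correlations of same-numbered deviations were 0.11, -0.17, -0.014 and -0.021. So few cultures cannot tell whether donors were shared, and the paired analysis with the replicate block is given as an alternative only. With 4 cultures a group and fold changes that vary between cultures, calls near the threshold moved with single cultures.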

Other observations

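Lysosome and autophagy genes had 20 of 45 members higher and 2 lower in treated enteroids, at a median log2 fold change of 0.47 (untreated 0.34), and the number called was 12 without control culture 3 and 13 without control culture 2 or treated culture 3 or 4. Ctsd, which encodes the lysosomal protease cathepsin D, was at 169 ± 23.6 CPM in control and 372 ± 123 CPM in treated cultures (log2 fold change 1.14, adjusted p = 0.00748).

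Targets of the antioxidant factor NRF2 had 5 of 23 higher and 2 lower (median 0.32, number called 4 without control culture 2, 3 or 4, or treated culture 3 or 4 and 14 without control culture 1). Genes of the unfolded protein and integrated stress response had 1 of 33 higher and 2 lower (median -0.21, number called 1 without control culture 2, 3 or 4, or treated culture 3 or 4, 6 without treated culture 2 and 10 without control culture 1), and Hspa5, the chaperone BiP, was at 995 ± 154 CPM in control and 816 ± 140.4 CPM in treated cultures (log2 fold change -0.29, adjusted p = 0.264). Iron handling genes had 3 of 13 higher and 2 lower (number called 2 without control culture 3 or 4, or treated culture 3 and 3 without control culture 2 or treated culture 4), not far from the shares over all genes tested. Cybrd1, a duodenal iron reductase gene, was at 139, 123, 177 and 114 CPM in control and 471, 234, 351 and 429 CPM in treated cultures (log2 fold change 1.42, SE 0.24, adjusted p = 0.004402). Hypoxia-inducible genes had 5 of 24 lower and 3 higher (number called 0 without control culture 3 or treated culture 4, 1 without control culture 4, 3 without control culture 2, 4 without treated culture 3 and 5 without treated culture 2), at medians of -0.11 in treated and 0.34 in untreated enteroids.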
